A study of Mus musculus with 9 samples.

Results

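The transcripts described here are 10 antioxidant genes, Gclc, Gclm, Gpx1, Gpx3, Prdx6, Srxn1, Txnrd1, Sod1, Nqo1 and Hmox1, chosen by name. All 10 were found among the 15593 gene symbols of the deposited table, and all 10 were among the 15372 genes tested. RNA came from mouse gastrocnemius, the large calf muscle, in 3 groups of 3 libraries. The first group was mdx mice that received subcutaneous GTx-026 at 10 mg/kg, the second was vehicle-treated mdx mice, and the third was vehicle-treated wildtype mice. The series title places the work with androgen receptor agonists in models of Duchenne muscular dystrophy, and the mdx mouse carries a mutation of the dystrophin gene Dmd in every cell. All libraries carry the strain label C57BL/6, and neither an age nor a length of treatment is stated in the sources used here. The treated mice were all mdx, so GTx-026 was not measured on the wildtype background.

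NRF2, encoded by Nfe2l2, is a transcription factor that KEAP1 marks for breakdown until oxidants or electrophiles modify KEAP1. Freed NRF2 pairs with small MAF proteins on antioxidant response elements and raises enzymes that make glutathione, recycle thioredoxin, reduce peroxides and detoxify quinones and haem. Raised oxidative stress is a known feature of dystrophic muscle. Gclc, Gclm, Srxn1, Txnrd1, Nqo1 and Hmox1 are textbook NRF2 targets, whereas Gpx1, Gpx3, Prdx6 and Sod1 also answer to other regulators.

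The series describes bulk muscle, so a change in the number of cells of a type and a change in RNA per cell cannot be told apart. Levels are given as CPM, the reads of a gene for every M (mega) of the listed reads after rescaling, and are not corrected for gene length. Overlap between groups was counted on these rescaled levels only, and it can differ with other scalings. Log2 fold changes are on the log2(CPM + 1) scale, with the standard error (SE) of the limma model, and adjusted p-values are two-sided Benjamini-Hochberg values over all 15372 tested genes, with a threshold of 0.05. The 3 comparisons share libraries, so they are not independent of each other. The estimated listed reads were 25.1 M to 38.0 M per library, and the 12 skeletal muscle markers were all detected, with a summed level of 140890 to 250181 CPM. Dmd averaged 16.6 ± 2.07 CPM in mdx GTx-026 muscle and 18.3 ± 5.97 CPM in mdx vehicle muscle, against 50.8 ± 9.30 CPM in wildtype muscle (SD, n = 3 each), and no mdx library reached the lowest wildtype library. Dmd fell in mdx GTx-026 against wildtype muscle by 1.55 on the log2 scale (adjusted p = 0.0187 by limma, 0.0669 to 0.0945 when a single mdx GTx-026 library, or wildtype library 2 or 3, was left out), and mdx vehicle against wildtype gave -1.47 (adjusted p = 0.0505). Library 1 of the mdx vehicle group stood apart within that group. Its summed macrophage markers were 847 CPM against 119 and 392 CPM. Its summed slow-fibre contractile genes were 400.0 CPM against 9381 and 6685 CPM. These genes summed to 1033, 2386 and 14924 CPM in mdx GTx-026 muscle and 1185, 11304 and 3817 CPM in wildtype muscle. Library 3 of the mdx GTx-026 group was the highest of that group for Gpx3, Hmox1, Txnrd1, Prdx6, Nqo1 and Gclc. It was not the highest for Gpx1, Srxn1, Gclm and Sod1. The part of fibre type in these levels was not tested.

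The data showed higher levels of several of the 10 transcripts in mdx GTx-026 muscle than in wildtype muscle, with Gpx1 and Srxn1 past the threshold. Gpx1 rose 2.53-fold and Srxn1 rose 1.76-fold, as ratios of group means. Of all tested genes 1.48% passed in this comparison. Each of the 2 calls was lost in 6 of the 9 fits that left out 1 library. Gpx3 and Hmox1 were 1.87-fold and 2.17-fold higher in the same comparison and did not pass, with adjusted p = 0.0631 for Gpx3 and adjusted p = 0.0725 for Hmox1 by limma. Between mdx GTx-026 and mdx vehicle muscle, and between mdx vehicle and wildtype muscle, none of the 10 passed the threshold. Of all tested genes 0.013% and 0.338% passed in these comparisons. Within these comparisons Gpx3 had the largest ratio among the 10 between mdx GTx-026 and mdx vehicle muscle, at 1.85. With the rescaling used here, Prdx6 was the member that was lower in every mdx vehicle library than in every wildtype library, as were 8.49% of all tested genes.

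**Figure D1:**
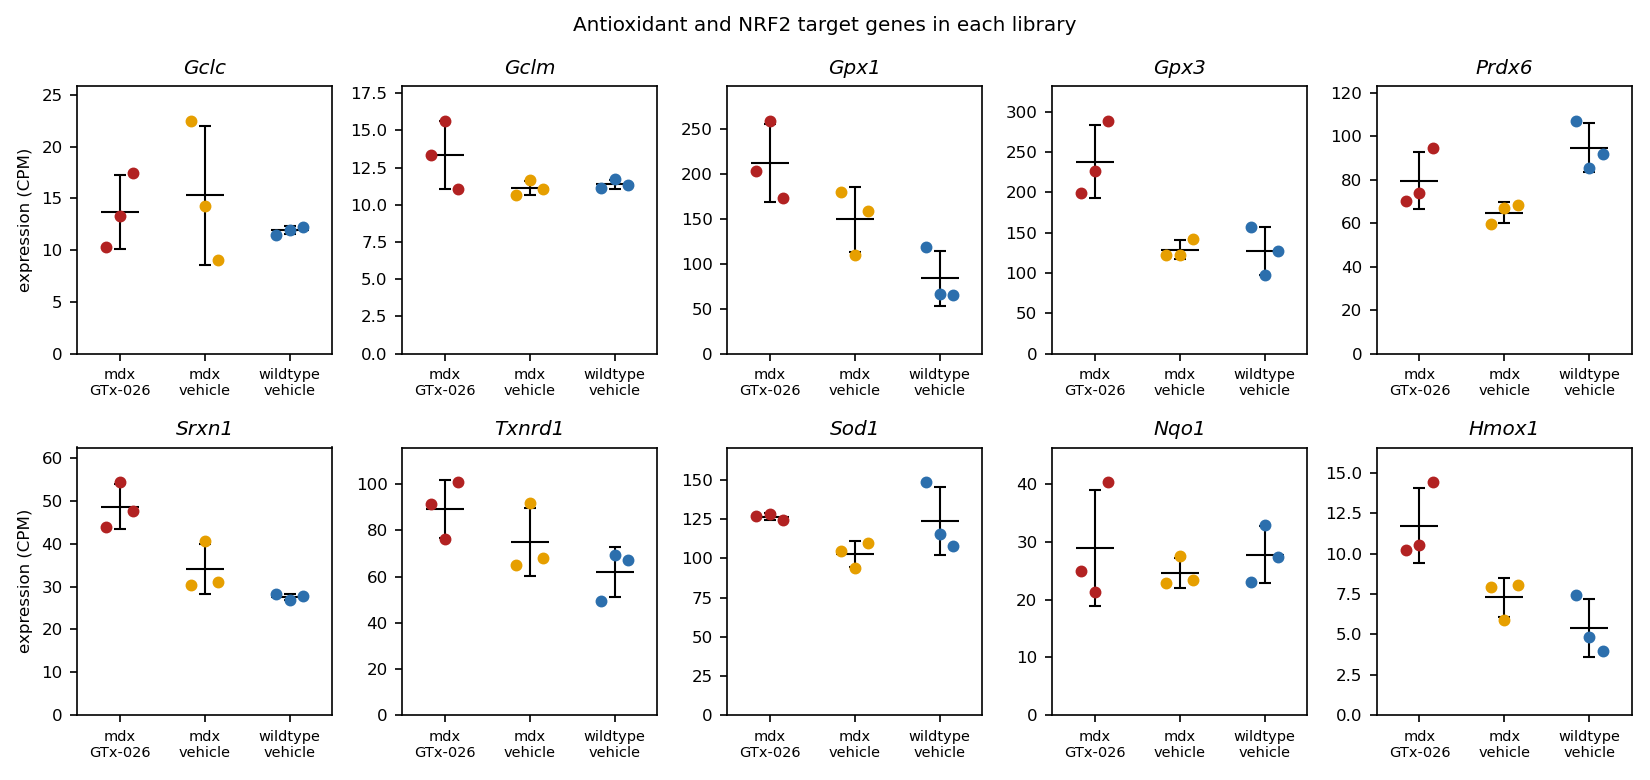
Level of each of the 10 transcripts (CPM, y axis) in the single libraries of mdx GTx-026, mdx vehicle and wildtype vehicle muscle; points are libraries, horizontal lines are group means and bars are ± SD (n = 3 each). Gpx3 in the 3 mdx GTx-026 libraries lay between 199.8 and 289 CPM, above the other 6 libraries, while the Gclc points of the mdx vehicle group spread from 9.08 to 22.5 CPM.

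The sequences just before the annotated starts of some members carry a match to the antioxidant response element, the site class through which NRF2 acts, and these are shown because they are the regulatory sequence that the members could share. RefSeq promoter windows of the build GRCm38.p6 were matched by symbol for 7 members, in 9 windows, and the 250 bases before each start were searched on both strands. The element core TGACNNNGC was found in a window of Gclm, Txnrd1 and Sod1, that is 3 of the 9 windows and 3 of the 7 members. It occurs in 10.2% of all 32851 promoters, which are counted by window. A 9-base form of the element, TGAGTCAGC, which was added after the sequences had been read, was found in Srxn1 and occurs in 0.347% of the promoters; no single stretch of 9 bases can match both. Capitals mark the match. In Gclm, Txnrd1 and Sod1 it lies on the other strand, so the capitals there read as its reverse complement. Each stretch is printed from the strand of the gene.
Srxn1, chr2:152105419-152105515, plus strand: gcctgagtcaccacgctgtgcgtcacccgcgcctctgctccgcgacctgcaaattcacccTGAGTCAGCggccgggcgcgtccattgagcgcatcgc
Gclm, chr3:122245363-122245491, plus strand: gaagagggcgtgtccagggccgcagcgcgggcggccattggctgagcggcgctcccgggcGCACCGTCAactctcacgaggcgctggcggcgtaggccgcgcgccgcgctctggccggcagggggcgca
Txnrd1, chr10:82859054-82859182, plus strand: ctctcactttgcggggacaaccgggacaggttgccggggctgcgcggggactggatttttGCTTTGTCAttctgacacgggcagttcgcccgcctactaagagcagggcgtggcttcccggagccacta
Sod1, chr16:90220646-90220753, plus strand: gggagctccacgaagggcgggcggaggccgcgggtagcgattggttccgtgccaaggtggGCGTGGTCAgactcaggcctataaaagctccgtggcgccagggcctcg
Counted in bases from the RefSeq start, the matches begin at -45 in Srxn1 (start at chr2:152105524), -134 in Gclm (chr3:122245557), -92 in Txnrd1 (chr10:82859206) and -56 in Sod1 (chr16:90220762). For Srxn1, Txnrd1 and Sod1 these starts differ from the GENCODE gene starts given with the genes. For Gpx1, Gpx3, Nqo1 and the other 2 Txnrd1 windows these letters were not in the 250 bases searched. A match describes the letters and was not tested for binding in this muscle.

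Glutathione is made by glutamate-cysteine ligase, whose catalytic subunit is Gclc (chr9:77754535-77794485, plus strand) and whose modifier subunit is Gclm (chr3:122245557-122270732, plus strand; gene positions here and below are GENCODE M21 on GRCm38). Gclc had 10.3, 13.3 and 17.5 CPM in the mdx GTx-026 libraries, 22.5, 14.3 and 9.08 CPM in the mdx vehicle libraries and 11.5, 12.0 and 12.3 CPM in the wildtype libraries. The mdx vehicle group held both the highest and the lowest of the 9 values, and all 3 groups overlapped. The highest value was that of mdx vehicle library 1, and without that library the log2 fold change of mdx vehicle against wildtype was -0.056, with 0.25 when it was kept (SE 0.29, adjusted p = 0.731 by limma). Gclm had 13.4, 15.6 and 11.1 CPM in the mdx GTx-026 libraries, 10.7, 11.7 and 11.1 CPM in the mdx vehicle libraries and 11.1, 11.7 and 11.3 CPM in the wildtype libraries. The 2 highest values were those of mdx GTx-026 libraries 1 and 2, and the third mdx GTx-026 library lay within the range of the other groups. Gclm differed by a log2 fold change of 0.23 for mdx GTx-026 against mdx vehicle and 0.20 for mdx GTx-026 against wildtype muscle (SE 0.15 in both). Its sequence shares 4.58% of its 50-base words with other genes, and its exons overlap Gm17494 on the other strand and Gm6061 on the same strand, so part of its reads could belong to other transcripts.

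Glutathione peroxidases and peroxiredoxins turn hydrogen peroxide and lipid peroxides into water and alcohols. Gpx1 (chr9:108338903-108340343, plus strand) encodes the cytosolic selenoenzyme. Gpx1 had 203.0, 259 and 173 CPM in mdx GTx-026 muscle, 180.0, 109.7 and 159 CPM in mdx vehicle muscle and 119, 66.4 and 65.5 CPM in wildtype muscle. All 3 mdx GTx-026 libraries lay above every wildtype library, 2 of them lay above every mdx vehicle library, and mdx vehicle library 2 lay below wildtype library 1. The means were 212 ± 43.5 CPM in mdx GTx-026 muscle, 149.6 ± 36.1 CPM in mdx vehicle muscle and 83.6 ± 30.6 CPM in wildtype muscle (SD, n = 3 each). Gpx1 rose in mdx GTx-026 against wildtype muscle by 1.37 on the log2 scale (SE 0.27, adjusted p = 0.0452 by limma). For mdx GTx-026 against mdx vehicle the log2 fold change was 0.51 (SE 0.27, adjusted p = 0.9996 by limma), and that of mdx vehicle against wildtype was 0.86 (SE 0.27, adjusted p = 0.271). The call against wildtype muscle was lost with the deposited scaling (adjusted p = 0.0731) and with equal library totals (adjusted p = 0.0764). It was also lost without any single mdx GTx-026 library (adjusted p = 0.131 without library 1, 0.167 without library 2 and 0.0951 without library 3), without mdx vehicle library 3 (0.0597), and without wildtype library 2 (0.172) or 3 (0.191).

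Gpx3 (chr11:54902453-54910377, plus strand) encodes the secreted glutathione peroxidase of plasma. Gpx3 had 199.8, 227 and 289 CPM in mdx GTx-026 muscle, 123, 122 and 142 CPM in mdx vehicle muscle and 157, 97.3 and 128 CPM in wildtype muscle. Every mdx GTx-026 library lay above every library of both other groups, and the mdx vehicle and wildtype groups overlapped. The means were 238 ± 45.7 CPM in mdx GTx-026 muscle, 129 ± 11.5 CPM in mdx vehicle muscle and 127 ± 29.8 CPM in wildtype muscle (SD, n = 3 each). Gpx3 gave a log2 fold change of 0.87 for mdx GTx-026 against mdx vehicle (SE 0.20, adjusted p = 0.721 by limma) and 0.91 against wildtype (SE 0.20, adjusted p = 0.0631). For mdx vehicle against wildtype muscle it was 0.04 (SE 0.20, adjusted p = 0.939 by limma). Gpx3 passed against wildtype muscle in 3 alternatives: with all records summed (adjusted p = 0.0404), with no filter on low values (0.0420) and with library weights (0.0121). Its adjusted p by limma was 0.0996 with the deposited scaling, 0.103 with equal library totals and up to 0.218 without a single library. In the authors' deposited table, the ratio of mdx vehicle over mdx GTx-026 means was 0.562 for Gpx3, with an unadjusted p of 0.0939.

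Prdx6 (chr1:161240112-161251219, minus strand) encodes a peroxiredoxin that uses glutathione and also reduces oxidised phospholipids. Prdx6 had 70.4, 73.8 and 94.4 CPM in mdx GTx-026 muscle, 59.4, 66.8 and 68.3 CPM in mdx vehicle muscle and 107, 85.2 and 91.8 CPM in wildtype muscle. The mdx vehicle libraries were the 3 lowest of the 9, and the mdx GTx-026 and wildtype libraries overlapped. Prdx6 gave a log2 fold change of -0.54 for mdx vehicle against wildtype (SE 0.15, adjusted p = 0.218 by limma), with a ratio of means of 0.685. By limma it was -0.36 with the deposited scaling (adjusted p = 0.515) and -0.35 with equal library totals (adjusted p = 0.529). Overlap was not counted with those scalings. In the authors' deposited table the unadjusted p of wildtype against mdx vehicle was 0.136 to 0.254 for its 3 records. Against mdx vehicle the mdx GTx-026 group gave 0.28 (SE 0.15), and against wildtype it gave -0.25 (SE 0.15, adjusted p = 0.567 by limma). The 3 sequence records of Prdx6 each showed the lower mdx vehicle level, with log2 ratios of mdx vehicle over wildtype means of -0.59 to -0.50; these records share reads, so they are not independent. The skeletal muscle markers were also lower in mdx vehicle than in wildtype muscle, 11 of 12 of them, 5 without overlap against 8.49% of all tested genes, with a median of -0.40. Without mdx vehicle library 1 they were lower in 9 of 12, with a median of -0.24, and their part in the Prdx6 difference was not tested.

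Sulfiredoxin, encoded by Srxn1 (chr2:152105516-152111376, plus strand), repairs peroxiredoxins that were inactivated by excess peroxide. Srxn1 had 43.9, 54.3 and 47.6 CPM in mdx GTx-026 muscle, 30.4, 40.7 and 31.1 CPM in mdx vehicle muscle and 28.2, 26.9 and 27.8 CPM in wildtype muscle. The 3 groups did not overlap: every mdx GTx-026 library lay above every mdx vehicle library, and every mdx vehicle library lay above every wildtype library. The means were 48.6 ± 5.27 CPM in mdx GTx-026 muscle, 34.1 ± 5.77 CPM in mdx vehicle muscle and 27.6 ± 0.680 CPM in wildtype muscle (SD, n = 3 each). Srxn1 rose in mdx GTx-026 against wildtype muscle by 0.79 on the log2 scale (SE 0.15, adjusted p = 0.0334 by limma). Its log2 fold change was 0.51 against mdx vehicle (SE 0.15, adjusted p = 0.9996 by limma) and 0.28 for mdx vehicle against wildtype (SE 0.15, adjusted p = 0.452). The call against wildtype muscle was lost without mdx GTx-026 library 1 (adjusted p = 0.0794), 2 (0.132) or 3 (0.103), and without wildtype library 1 (0.0769), 2 (0.125) or 3 (0.139). In the authors' deposited table the ratio of wildtype over mdx GTx-026 means was 0.523 for Srxn1, with an unadjusted p of 0.0432, and 0.371 for Gpx1, with an unadjusted p of 0.0301.

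Txnrd1 (chr10:82833951-82897712, plus strand) encodes the cytosolic thioredoxin reductase, the selenoenzyme that passes electrons from NADPH to thioredoxin. Txnrd1 had 91.2, 76.1 and 101 CPM in mdx GTx-026 muscle, 65.0, 91.7 and 67.9 CPM in mdx vehicle muscle and 49.6, 69.1 and 67.3 CPM in wildtype muscle. Every mdx GTx-026 library lay above every wildtype library, while the mdx vehicle group overlapped both. The log2 fold change was 0.53 for mdx GTx-026 against wildtype (SE 0.19, adjusted p = 0.268 by limma), 0.26 against mdx vehicle and 0.27 for mdx vehicle against wildtype. Its 4 sequence records gave log2 ratios of mdx GTx-026 over wildtype means of 0.45 to 0.60. Records of the same gene can count a read more than once, so the summed levels of Txnrd1, Gclc with 4 records and Prdx6 with 3 records are not absolute. The other 7 genes have a single record each.

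Sod1 (chr16:90220754-90226329, plus strand) encodes the copper-zinc superoxide dismutase of the cytosol. Sod1 had 127, 129 and 124 CPM in mdx GTx-026 muscle, 105, 93.9 and 110.1 CPM in mdx vehicle muscle and 149, 116 and 108 CPM in wildtype muscle. The mdx GTx-026 libraries all lay above the mdx vehicle libraries and inside the range of the wildtype libraries. Sod1 gave a log2 fold change of 0.30 for mdx GTx-026 against mdx vehicle (SE 0.14), with a ratio of means of 1.23, and -0.26 for mdx vehicle against wildtype (SE 0.14, adjusted p = 0.486 by limma). Of the 50-base words of Sod1, 3.42% also occur in another gene, Gm8566.

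Nqo1 (chr8:107388225-107403206, minus strand) encodes a quinone reductase and is the usual reporter of NRF2 activity. Nqo1 had 25.0, 21.3 and 40.3 CPM in mdx GTx-026 muscle, 22.9, 27.6 and 23.4 CPM in mdx vehicle muscle and 23.1, 32.9 and 27.3 CPM in wildtype muscle. The groups overlapped in all 3 comparisons, and mdx GTx-026 library 3 was the highest of the 9. Nqo1 gave a log2 fold change of 0.17 for mdx GTx-026 against mdx vehicle and 0.017 against wildtype (SE 0.23 in both). For mdx vehicle against wildtype it was -0.16 (SE 0.23, adjusted p = 0.788 by limma), and its sign turned with the deposited scaling (0.011) and with equal library totals (0.021). Without mdx GTx-026 library 3 the differences from mdx vehicle and from wildtype muscle were both negative, at -0.085 and -0.24.

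Hmox1 (chr8:75093621-75100589, plus strand) encodes haem oxygenase 1, which breaks down haem and is strong in macrophages that have taken up red cells. Hmox1 had 10.2, 10.5 and 14.4 CPM in mdx GTx-026 muscle, 7.90, 5.87 and 8.08 CPM in mdx vehicle muscle and 7.41, 4.82 and 3.97 CPM in wildtype muscle. Every mdx GTx-026 library lay above every library of both other groups, which overlapped each other. The means were 11.7 ± 2.33 CPM in mdx GTx-026 muscle, 7.28 ± 1.23 CPM in mdx vehicle muscle and 5.40 ± 1.80 CPM in wildtype muscle (SD, n = 3 each). Hmox1 gave a log2 fold change of 1.01 for mdx GTx-026 against wildtype (SE 0.23, adjusted p = 0.0725 by limma) and 0.62 against mdx vehicle (SE 0.23, adjusted p = 0.9996). For mdx vehicle against wildtype it was 0.40 (SE 0.23, adjusted p = 0.501 by limma). Hmox1 passed against wildtype muscle with library weights (adjusted p = 0.0108) and without wildtype library 1 (0.0440). Its adjusted p by limma was 0.135 with the deposited scaling, 0.141 with equal library totals and up to 0.274 without a single library. In the authors' deposited table the ratio of wildtype over mdx GTx-026 means was 0.430 for Hmox1, with an unadjusted p of 0.0444.

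**Figure D2:**
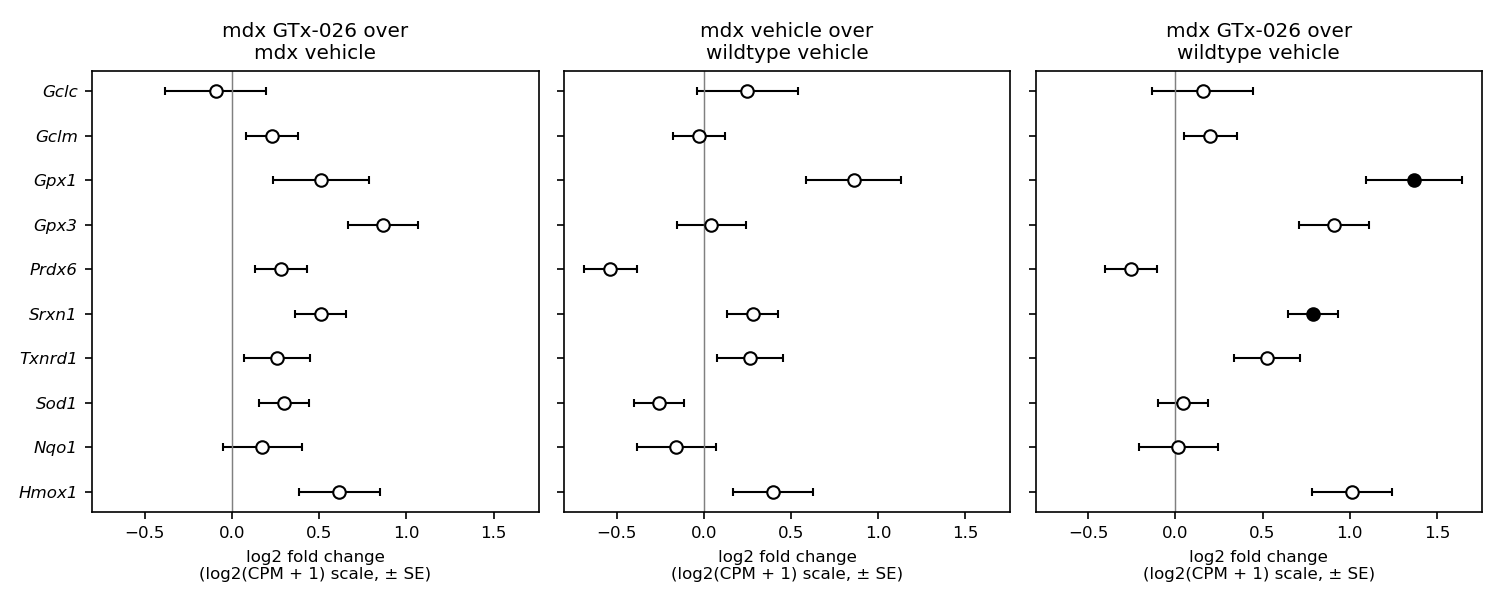
Log2 fold change (x axis) of each of the 10 genes in the 3 comparisons, with points for the limma estimate, filled where the adjusted p is under 0.05, and bars for ± SE. Gpx1 at 1.37 and Srxn1 at 0.79 in mdx GTx-026 against wildtype muscle are the 2 estimates past the threshold of 0.05 on the adjusted p.

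Between mdx GTx-026 and mdx vehicle muscle, which asks what the drug did in dystrophic muscle, 9 of the 10 genes were higher and Gclc was lower, with a median log2 fold change of 0.29 against 0.0049 over all tested genes. None of the 10 passed the threshold by limma, where 0.013% of all tested genes did. At an unadjusted p under 0.05 by limma there were 3 members, Gpx3, Srxn1 and Hmox1, all higher, against 1.97% of all tested genes higher at that limit. In the authors' deposited table the unadjusted p of this comparison was 0.0939 for Gpx3, 0.118 for Srxn1 and 0.150 for Hmox1. In 5 members, Gpx3, Srxn1, Hmox1, Sod1 and Prdx6, every mdx GTx-026 library lay above every mdx vehicle library, against 3.67% of all tested genes. This was counted after rescaling, with factors of 1.30 for mdx vehicle library 1 and 0.891 for mdx GTx-026 library 1. It can differ with other scalings, for which it was not counted. With equal library totals the log2 fold changes were 0.80 for Gpx3, 0.44 for Srxn1, 0.55 for Hmox1, 0.23 for Sod1 and 0.21 for Prdx6. Without mdx vehicle library 1, which stood apart, all 10 were higher, none of the 10 passed, and the log2 fold changes of Gpx3, Srxn1 and Hmox1 were 0.83, 0.43 and 0.67. Without mdx GTx-026 library 3, where the slow-fibre genes were highest, those of Gpx3, Srxn1 and Hmox1 were 0.72, 0.52 and 0.47.

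Between mdx vehicle and wildtype muscle, which asks what the dystrophic state itself did, 6 of the 10 were higher and 4 were lower, with a median of 0.15 against 0.0088 over all tested genes. None of the 10 passed the threshold by limma, where 0.338% of all tested genes did. At an unadjusted p under 0.05 there were Gpx1, higher, and Prdx6, lower, against 12.7% of all tested genes in either direction. With the rescaling used here, Srxn1 was higher in every mdx vehicle library than in every wildtype library, against 7.97% of all tested genes. Prdx6 was lower in every one, against 8.49%. Without mdx vehicle library 1 there were 5 higher and 5 lower, with a median of 0.038. With the deposited scaling the median of all tested genes in this comparison moved to 0.15, and Gclm and Nqo1 had values of 0.13 and 0.011, below that shift. Of the genes called over the whole table, 29 were higher and 23 lower, against 30 higher and 12 lower with the deposited scaling and 28 higher and 10 lower with equal library totals.

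Between mdx GTx-026 and wildtype muscle, 9 of the 10 were higher and Prdx6 was lower, with a median of 0.36 against 0.0018 over all tested genes. Gpx1 and Srxn1 passed the threshold by limma, where 1.48% of all tested genes did and 1.05% did so with a higher level. In 5 members, Gpx1, Gpx3, Srxn1, Hmox1 and Txnrd1, every mdx GTx-026 library lay above every wildtype library, against 11.5% of all tested genes. The same 5 had an unadjusted p under 0.05 here, against 7.44% of all tested genes higher at that limit. The split of calls over the whole table, 161 higher and 66 lower, was 187 higher and 43 lower with equal library totals.

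**Figure D3:**
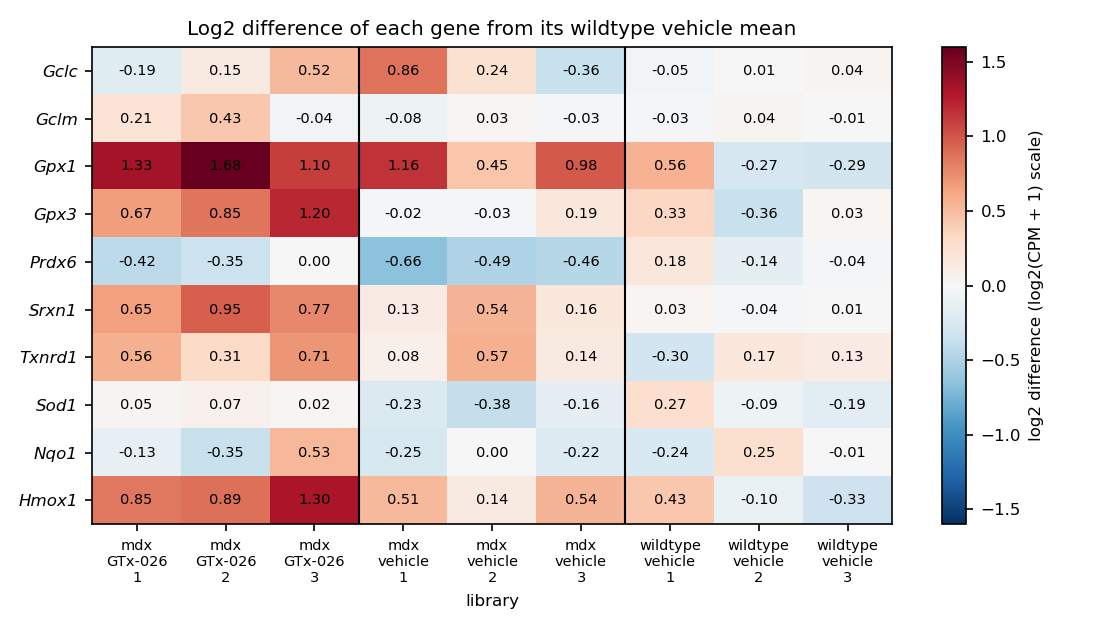
Difference of each library's log2 level from the mean log2 level of the 3 wildtype libraries, for the 10 genes (rows) in the 9 libraries (columns, mdx GTx-026, mdx vehicle and wildtype from left to right); the colour scale is in log2 units. Gpx1 is at 1.33, 1.68 and 1.10 in the mdx GTx-026 libraries and at 1.16, 0.45 and 0.98 in the mdx vehicle libraries.

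The order of the group means placed mdx GTx-026 muscle above mdx vehicle muscle and mdx vehicle muscle above wildtype muscle for 5 members, Gpx1, Gpx3, Srxn1, Hmox1 and Txnrd1. For Nqo1, Gclm and Sod1 the order was mdx GTx-026, wildtype and mdx vehicle. Gclc was highest in mdx vehicle muscle and Prdx6 was highest in wildtype muscle. Among the neighbouring groups in these orders no pair passed the threshold for any member. Counted by library, 6, 7 and 7 of the 10 genes in the mdx GTx-026 libraries, and 4, 3 and 3 in the mdx vehicle libraries, lay above every wildtype library. Of all tested genes, 28.4%, 29.1% and 28.4% did so in the mdx GTx-026 libraries and 35.1%, 25.0% and 28.9% in the mdx vehicle libraries. The median difference of the 10 genes from the wildtype mean was 0.39, 0.37 and 0.62 on the log2 scale in the mdx GTx-026 libraries. It was 0.03, 0.08 and 0.06 in the mdx vehicle libraries and 0.11, -0.06 and -0.01 in the wildtype libraries. Members were chosen with earlier results of these data known, so these counts describe the 10 genes and test nothing.

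The list of NRF2 pathway regulators named 14 genes, among them Nfe2l2 itself, Keap1, Bach1, Nfe2l1 and the small MAF genes. Of these, 13 were measured, and none of the 13 passed in any comparison by limma. Of all tested genes 0.013% passed in mdx GTx-026 against mdx vehicle, 0.338% in mdx vehicle against wildtype and 1.48% in mdx GTx-026 against wildtype. All 13 were higher in mdx GTx-026 than in mdx vehicle muscle, by 0.02 to 0.47 with a median of 0.18 on the log2 scale, and none had an unadjusted p under 0.05. Against wildtype muscle, 10 of the 13 were lower in mdx vehicle muscle, with a median of -0.067. In mdx vehicle library 1 none of the 13 lay above the wildtype mean, against 7 and 5 of them in libraries 2 and 3. Without library 1, 10 of the 13 were higher in mdx GTx-026 than in mdx vehicle muscle, with a median of 0.091, and 7 were lower in mdx vehicle than in wildtype muscle. Park7, a chaperone that stabilises NRF2, averaged 375 ± 122 CPM in mdx GTx-026 muscle, 323 ± 51.2 CPM in mdx vehicle muscle and 536 ± 41.6 CPM in wildtype muscle (SD, n = 3 each). Its log2 fold change for mdx vehicle against wildtype was -0.74 (adjusted p = 0.264 by limma). Nfe2l1, a relative of NRF2 that controls proteasome genes, gave -0.51 in the same comparison (adjusted p = 0.560 by limma), and -0.12 without mdx vehicle library 1.

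Of 23 measured glutathione enzymes and carriers, 1 fell and none rose past the threshold in mdx GTx-026 against wildtype muscle. In that comparison 1.48% of all tested genes passed. None of the 23 passed in the other 2 comparisons, where 0.013% and 0.338% of all tested genes did. The one that fell was Gstm2, a mu-class glutathione transferase. Gstm2 had 44.7, 26.9 and 33.8 CPM in mdx GTx-026 muscle, 60.0, 50.6 and 53.6 CPM in mdx vehicle muscle and 87.6, 94.4 and 99.4 CPM in wildtype muscle. The 3 groups did not overlap, in the opposite order to Srxn1. Gstm2 fell in mdx GTx-026 against wildtype muscle by 1.42 on the log2 scale (SE 0.18, adjusted p = 0.00692 by limma), and it passed in all 21 alternatives. For mdx vehicle against wildtype the log2 fold change was -0.77 (adjusted p = 0.144 by limma), and for mdx GTx-026 against mdx vehicle it was -0.65 (adjusted p = 0.9996). Of its 50-base words 5.65% occur in other genes.

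The thioredoxin and peroxiredoxin list held 15 measured genes, with sestrins and methionine sulfoxide reductases among them. The sestrin Sesn1 was the 1 that fell past the threshold in mdx GTx-026 against wildtype muscle, where 1.48% of all tested genes passed. None of the 15 passed in the other 2 comparisons, where 0.013% and 0.338% of all tested genes did. Sesn1, a p53 target that helps to hold down TOR signalling, had 15.2, 24.3 and 23.2 CPM in mdx GTx-026 muscle, 40.7, 26.2 and 33.0 CPM in mdx vehicle muscle and 44.8, 52.2 and 41.4 CPM in wildtype muscle. Its groups did not overlap either. Sesn1 fell in mdx GTx-026 against wildtype muscle by 1.12 on the log2 scale (SE 0.21, adjusted p = 0.0371 by limma). That call was lost with the deposited scaling (adjusted p = 0.162), with equal library totals (0.172), with the largest record only (0.0632), and in 7 of the 9 fits that left out 1 library, those without a single mdx GTx-026 library, mdx vehicle library 3 or a single wildtype library (0.0507 to 0.143).

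Of 11 other measured NRF2 targets, 1 rose in both comparisons with wildtype muscle. Of all tested genes 0.338% passed there for mdx vehicle and 1.48% for mdx GTx-026 muscle. Akr1b8, an aldo-keto reductase of reactive aldehydes, had 9.16, 9.66 and 9.25 CPM in mdx GTx-026 muscle, 10.9, 6.14 and 9.60 CPM in mdx vehicle muscle and 2.01, 1.95 and 1.35 CPM in wildtype muscle. All 6 mdx libraries lay above every wildtype library, and the 2 mdx groups overlapped. Akr1b8 rose in mdx vehicle against wildtype muscle by 1.81 on the log2 scale (SE 0.21, adjusted p = 0.0113 by limma), and in mdx GTx-026 against wildtype muscle by 1.91 (adjusted p = 0.00454). The first of these calls was lost with the 2 groups fitted alone (adjusted p = 0.0964), and without mdx vehicle library 3, wildtype library 2 or wildtype library 3 (0.0616 to 0.0740). Of the 50-base words of Akr1b8, 2.14% also occur in Akr1b10, so a small part of its reads could come from that relative.

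The remaining antioxidant pathway lists held no gene past the threshold by limma. Of 4 measured superoxide dismutase and catalase genes other than Sod1, 3 were lower in mdx vehicle than in wildtype muscle, with a median of -0.26. Among them Sod2, the mitochondrial dismutase, gave -0.55 (adjusted p = 0.427) and catalase, Cat, gave -0.49 (adjusted p = 0.399) by limma, with every mdx vehicle library below every wildtype library for Cat. Without mdx vehicle library 1 these values were -0.26 for Sod2 and -0.36 for Cat, and 2 of the 4 genes were lower. The skeletal muscle markers, with a median of -0.40, and Park7 were lower in the same comparison. Of 9 NADPH supply genes, 6 were higher and 3 lower in that comparison, and 4 were higher and 5 lower without mdx vehicle library 1. Nnt, the mitochondrial transhydrogenase, spread from 91.4 to 350 CPM in mdx GTx-026 muscle, from 53.2 to 214 CPM in mdx vehicle muscle and from 22.7 to 310 CPM in wildtype muscle, and Idh2, which makes NADPH in mitochondria, gave -0.75 (adjusted p = 0.656 by limma). Without mdx vehicle library 1 Idh2 gave -0.090, and without wildtype library 1 it gave -1.23. Idh2 was 86.1 CPM in mdx vehicle library 1, where the slow-fibre genes summed to 400.0 CPM, and 596 CPM in mdx GTx-026 library 3, where they summed to 14924 CPM; their part in these values was not tested. Of 10 haem and iron genes, 3 were higher and 7 lower in mdx vehicle than in wildtype muscle, with a median of -0.12. Among them Ftl1, the ferritin light chain, gave 0.92 (adjusted p = 0.296 by limma) and Blvrb, a biliverdin reductase, gave 0.72 (adjusted p = 0.362). Both were highest in mdx vehicle library 1, at 306 and 15.5 CPM. Without that library 4 of the 10 were higher and 6 lower, with a median of -0.011. Ftl1 shares 58.4% of its 50-base words with other genes, mostly its pseudogenes, so its level is uncertain. All 5 measured NADPH oxidase subunits, the superoxide source of phagocytes, were higher in mdx vehicle than in wildtype muscle, with a median of 1.30 on the log2 scale. Among them Cybb gave 1.70 (adjusted p = 0.354 by limma) and Ncf1 gave 1.34 (adjusted p = 0.450), and mdx vehicle library 1 held 47.8 CPM of Cybb against 4.16 and 12.6 CPM in the other libraries of its group. Without that library Cybb gave 0.85 and Ncf1 gave 0.54, and 4 of the 5 subunits were higher, with a median of 0.54. Of 5 selenoprotein synthesis genes, the median was 0.014, and Sephs2 and Pstk, which make the selenium donor and the modified tRNA, gave -0.26 and -0.16.

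**Figure D4:**
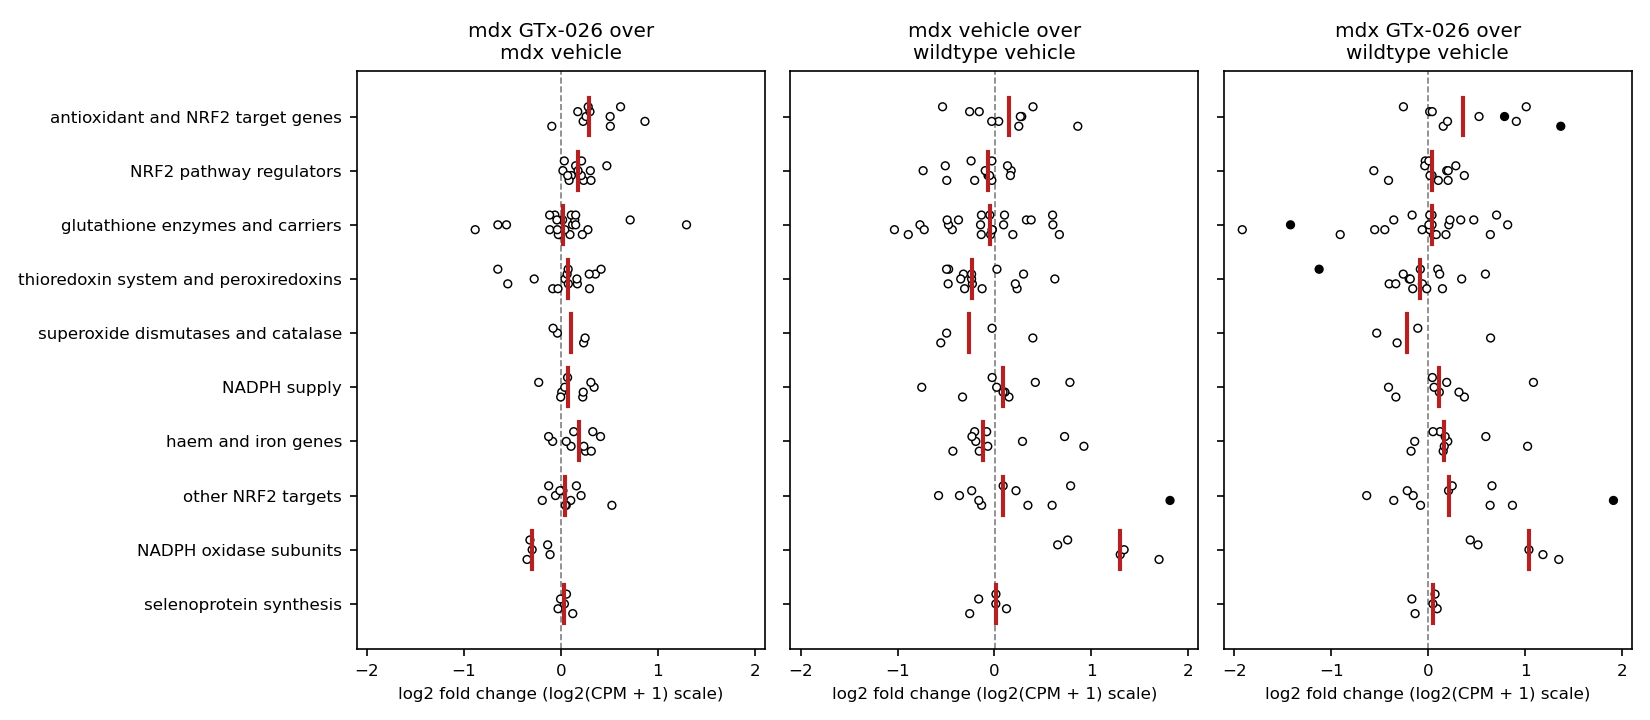
Log2 fold change (x axis, log2(CPM + 1) scale) of every measured gene of the 10 and of each pathway list (rows) in the 3 comparisons; circles are genes, filled where the adjusted p is under 0.05, and red lines are list medians. The NADPH oxidase subunits have a median of 1.30 for mdx vehicle against wildtype muscle and the 10 genes of 0.36 for mdx GTx-026 against wildtype muscle.

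Markers of other cells moved with some of these results. The 14 measured macrophage markers summed to 320, 299 and 434 CPM in the mdx GTx-026 libraries, 847, 119 and 392 CPM in the mdx vehicle libraries and 90.8, 104 and 44.7 CPM in the wildtype libraries. All 14 were higher in mdx GTx-026 than in wildtype muscle and 13 of them without overlap, against 11.5% of all tested genes, as were Gpx1, Gpx3, Srxn1, Txnrd1 and Hmox1. Of these markers, named after their values were seen, Lgals3 passed in mdx vehicle against wildtype muscle (log2 fold change 3.81, adjusted p = 0.0336 by limma) and in mdx GTx-026 against wildtype muscle (3.81, adjusted p = 0.0161), and C1qc in mdx GTx-026 against wildtype muscle (1.94, adjusted p = 0.0463). Of 9 fits that each left out 1 library, the first of these calls was lost in 7, those without any single mdx GTx-026 or wildtype library or mdx vehicle library 3, with adjusted p up to 0.188. The second was lost in 5, those without any single mdx GTx-026 library or wildtype library 2 or 3 (up to 0.0861), and the call of C1qc in 6, those without any single mdx GTx-026 or wildtype library (up to 0.184). The part of these cells in the results of the 10 genes was not tested. In mdx vehicle library 1, where the sum was highest, Gpnmb at 422 CPM and Lgals3 at 189 CPM made up most of it. The median log2 difference of the 14 markers from the wildtype mean was 1.52, 1.39 and 1.80 in the mdx GTx-026 libraries and 1.55, 0.32 and 1.37 in the mdx vehicle libraries. Of the lymphoid markers Cd52 alone was measured, and it was highest in mdx vehicle library 1 at 110.2 CPM. Gclc was also highest there. The 7 erythroid markers summed to 432, 1113 and 543 CPM in mdx GTx-026 muscle, 186, 607 and 427 CPM in mdx vehicle muscle and 464, 394 and 989 CPM in wildtype muscle. The sums overlapped, while 6 of the 7 markers were higher in mdx GTx-026 than in mdx vehicle muscle, with a median of 0.63, and 4 of the 7 without mdx vehicle library 1, with a median of 0.087. The alpha-globin genes Hba-a1 and Hba-a2, named after their values were seen, were the 2 of the 7 that did not overlap between these groups. Of all tested genes 3.67% were higher without overlap there. The other 5 markers overlapped. Among them the beta-globin gene Hbb-bs had 19.6, 253 and 87.2 CPM in mdx GTx-026 muscle and 5.06, 164 and 75.4 CPM in mdx vehicle muscle. Hmox1, Gpx3, Srxn1, Sod1 and Prdx6 did not overlap between these groups either. Hba-a1 had 163, 388 and 203 CPM in the mdx GTx-026 libraries and 63.3, 141 and 130.3 CPM in the mdx vehicle libraries, and the part of red cells in those results was not tested. The 6 adipocyte markers summed to 772, 1463 and 723 CPM in mdx GTx-026 muscle, 313, 843 and 1474 CPM in mdx vehicle muscle and 2123, 473 and 518 CPM in wildtype muscle. Wildtype library 1 was the highest of its group for Gpx1, Gpx3, Hmox1, Sod1, Prdx6 and Srxn1, and without it the log2 fold change of Gpx1 in mdx GTx-026 against wildtype muscle was 1.65 (adjusted p = 0.0218 by limma). That library also had 37.8 CPM of Cd52 against 5.02 and 0.982 CPM in the others of its group. Its NADPH oxidase subunits summed to 66.7 CPM against 19.7 and 10.3 CPM, while the macrophage sum was highest in wildtype library 2. The part of other cells in the levels of wildtype library 1 was not tested.

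**Figure D5:**
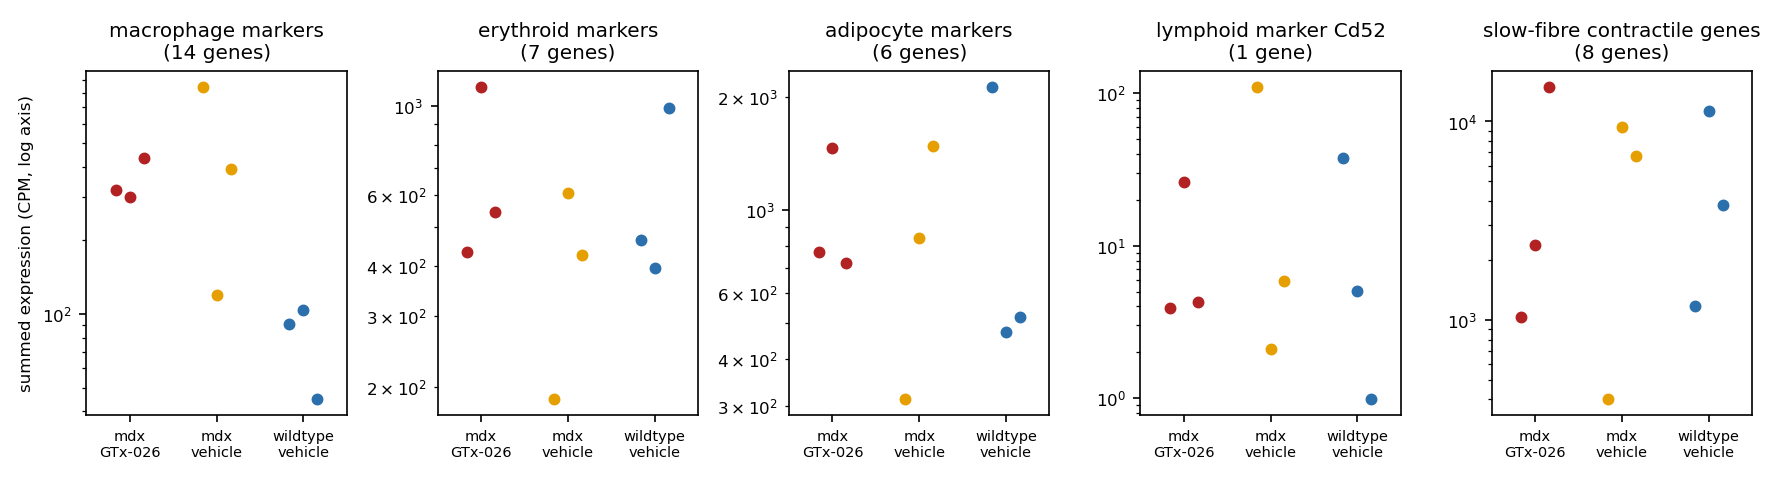
Summed level of the measured macrophage, erythroid and adipocyte markers, the lymphoid marker Cd52 and the slow-fibre contractile genes (CPM, logarithmic y axes) in each library of mdx GTx-026, mdx vehicle and wildtype muscle; each point is a library. The macrophage sum lies between 299 and 434 CPM in mdx GTx-026 muscle and between 44.7 and 104 CPM in wildtype muscle.

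The genes whose pattern over the 9 libraries was nearest to each of the 10 were found among 10342 genes at 5 CPM or more, by the root mean square difference of the standardised log2 values. The nearest was Hn1 for Gpx1 at 0.273, Midn for Srxn1 at 0.232 and Rit1 for Hmox1 at 0.241. The second were Plp2 at 0.275 for Gpx1, Frzb at 0.286 for Gpx3, Musk at 0.314 for Srxn1 and Hivep3 at 0.302 for Hmox1. For Nqo1 they were Arih1 at 0.229 and Ranbp9 at 0.327, and for Txnrd1 they were Larp4b at 0.281 and Zxdc at 0.381. For Gclc they were Far1 at 0.358 and Taf1 at 0.360, for Gclm Mad2l2 at 0.344 and Tomm5 at 0.432, and for Prdx6 Atraid at 0.353 and Slc22a5 at 0.405. Sod1 had the least close neighbours, Hoxa7 at 0.507 and Zfp423 at 0.543. None of the nearest genes is another of the 10. The 9 libraries are shared by all these patterns, so closeness here is a description.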

How the data were processed

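Polyadenylated RNA of 9 gastrocnemius libraries was sequenced on an Ion Torrent Proton, per the labels' protocols. The submitters' processing notes name the build GRCm38.p3 and the tools DESeq2 1.6.3, HTSeq 0.6.1p1, TopHat2 2.0.13, SAMtools 0.1.19 and Bowtie2 2.2.4, with no role or order. Neither the annotation nor any use of strand is stated there. The authors' deposited signal is a scaled read number for each of 46442 sequence records, and values below 10000 were whole multiples of a step in each library, to within 0.1 read. The authors' deposited group means, ratios of means and unadjusted p-values, per the file headers, were used only where named. No label ties a library to an animal, so p-values measure the spread between libraries, and a library number pairs nothing.

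Records above 0 in all 9 libraries were summed by symbol. Libraries were rescaled by an unweighted trimmed mean of log ratios (30% and 5% trimmed; factors 0.874 to 1.30), a record at 0 being read as listed at 0 only. limma 3.58.1 in R 4.3.3 was fitted to log2(CPM + 1) over all 9 libraries, with a trended prior, 6 residual and 3.54 prior degrees of freedom; the code was tested on simulated data. The count-model test of the plan could not be run on scaled values. The 10 genes, the lists and the tests were chosen with earlier results of these data known. Named were the 10 genes, pathway list genes past the threshold, otherwise up to 2 per pathway list with the largest change in mdx vehicle against wildtype at 5 CPM or more, the 2 nearest genes of each of the 10 (1 is not reported here), and Dmd. There were 21 alternatives, of which 1, a pseudocount of 1 deposited unit, was chosen after seeing the data.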

Additional observations from a re-analysis of the deposited data

How the results depend on the processing

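Of 630 values of the 10 genes under the 21 alternatives, 593 kept their direction and side of the threshold, 18 changed sign, 14 lost a call and 5 gained one. None of the 10 genes passed in any of the 21 in mdx GTx-026 against mdx vehicle muscle or in mdx vehicle against wildtype muscle. In mdx GTx-026 against wildtype muscle 2 of the 10 passed, with 1 under the deposited scaling, 1 under equal library totals, 3 with all records summed, 3 with no filter on low values, 4 under library weights and 0 to 2 without single libraries. Over the whole table, mdx GTx-026 against mdx vehicle gave 2 calls, with 1 when the 2 groups were fitted alone, 1 with a pseudocount of 5 CPM, 4 with the deposited scaling, equal totals or library weights, 96 with all records summed, 95 with no filter, and 0 to 2 without single libraries. For mdx vehicle against wildtype there were 52 calls, with 5 for the 2 groups alone, 332 with all records, 295 with weights, 301 with no filter and 5 to 93 without single libraries. For mdx GTx-026 against wildtype there were 227, with 421 for the 2 groups alone, 509 with all records, 861 with weights, 481 with no filter and 45 to 368 without single libraries. The settings with all records and with no filter let in records that are listed at 0 in some libraries. The cause of the different numbers of calls was not tested for any setting. Overlap between groups was not counted again under the alternatives.

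Signs turned for Gclc with library weights, to 0.17 in mdx GTx-026 against mdx vehicle and to -0.061 in mdx vehicle against wildtype muscle. In mdx vehicle against wildtype muscle they turned with the deposited scaling and with equal totals for Gclm (0.13 and 0.14), Nqo1 (0.011 and 0.021) and Pstk (0.0019 and 0.011). In mdx GTx-026 against wildtype muscle Nqo1 was -0.15 with library weights. Without single libraries, Gclc ran from -0.40 to 0.21 and Nqo1 from -0.085 to 0.36 in mdx GTx-026 against mdx vehicle. Gclc ran from -0.056 to 0.55, Gpx3 from -0.13 to 0.21 and Nnt from -0.020 to 1.84 in mdx vehicle against wildtype. Gclc ran from -0.024 to 0.33, Nqo1 from -0.24 to 0.20 and Sod1 from -0.050 to 0.18 in mdx GTx-026 against wildtype. No paired analysis was possible because the library numbers carry no pairing of animals or days. Precision is limited by 3 libraries a group and the spread between them, which for Hmox1 in wildtype muscle was 1.80 CPM around a mean of 5.40 CPM, at 25.1 M listed reads or more per library.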
